A study of Cricetulus griseus with 9 samples.

Results

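The 8 genes described here are Egr1, Ier3, Dusp1, Dusp4, Fosl1, Myc, Cebpd and Id3, a set of immediate early genes, MAP kinase phosphatases and related growth-responsive regulators. They were taken by symbol from a table of 6753 genes, and all 8 were found. They were chosen by their CPM levels and differences in all 3 groups. Their levels and differences are therefore a description, given without p-values. MI5-4 is a Chinese hamster ovary (CHO) subline, grown in medium with glucose, serum and antibiotics. Each of 3 groups had 3 libraries of mRNA: cells that the labels call EV and describe as hexokinase null, cells labelled as expressing wild-type hexokinase 2 (WTHK2), and EV cells kept for 24 h in 10 mM sodium lactate (LAC). The labels do not spell out EV, and the sources used here do not give whether WTHK2 cells are 1 clone, which promoter drives the construct or whether replicates were separate cultures. A p-value then measures only the spread among the libraries, which may be technical. In the table the lowest gene mean was 20.4 CPM (the read count scaled to library size), and genes not in it were not analysed here. Absence is not read as a low level. Of 13 mitochondrially encoded transcripts only 4 were in the table, with COX1 at a mean of 10735.5 CPM in EV. Why a gene is absent was not tested.

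Immediate early genes are switched on within minutes of a growth or stress signal, from a transcription machinery that is already in place, and need no new protein for it. The best known route runs from receptors through Ras, Raf and the MAP kinase ERK to factors such as the ternary complex factors and SRF, which bind in front of these genes. Many of the products are transcription factors, while the dual-specificity phosphatases among them remove the activating phosphates from MAP kinases and so close a feedback loop. A peak of this kind fades within hours. Cells in steady growth with serum keep a lower standing level, and a day of treatment is later than the first peak after its start. Whether the values below are standing levels or hold a response to handling or harvest was not tested.

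A few facts of the whole table bear on the values. The mean level of Hk2 (± SD, n = 3) was 67.3 ± 2.11 CPM for EV, 65.3 ± 1.33 for WTHK2 and 67.8 ± 2.92 for LAC, so it was not higher in the libraries labelled WTHK2, and each direction below for that group rests on its label. Whether reads of the construct are counted under Hk2 was not tested, so these values do not show whether it was expressed. Within each library the values fell on whole multiples of 1 step (tolerance 0.01), which gives effective library sizes of 18050959 to 26238659 reads. The 4 mitochondrially encoded transcripts of the table were higher than in EV, by a median of 0.40 to 0.73 in the WTHK2 libraries and 0.45 to 0.80 in the LAC libraries on the log2 scale, highest in replicate 1 of each. Genes for very long proteins were lower in both groups: of 51 in a list written by hand with this trend already known, 43 were called lower in WTHK2 (adjusted p under 0.05, as for 25.4% of all genes) and 46 in LAC (27.1%), with 0 higher in either. Of 12 fibroblast markers 6 were in the table, among them vimentin but not Col1a1 or Col1a2, and of 9 leukocyte and 6 epithelial markers 0 were. Because absence does not show a low level, no cell identity is read from these counts.

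**Figure D1:**
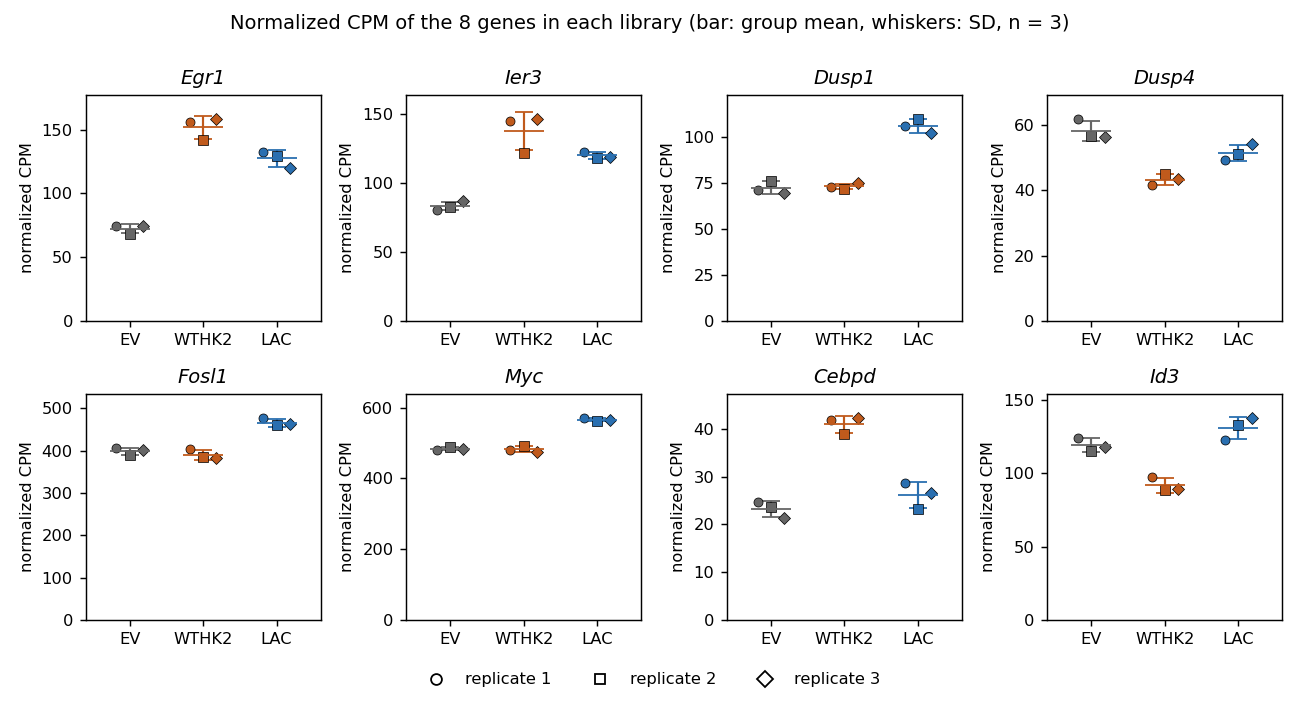
Normalized CPM of the 8 genes (vertical axes, each from 0) in the 3 EV, 3 WTHK2 and 3 LAC libraries; points are libraries, with the shape giving the replicate number, horizontal bars are group means and whiskers the SD. Egr1 and Ier3 are higher in both other groups than in EV, Dusp1, Fosl1 and Myc stand apart in LAC, and Cebpd stands apart in WTHK2.

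Egr1 and Ier3 were higher than in EV in every WTHK2 and every LAC library. Egr1 codes for a zinc finger transcription factor and is a classic direct target of ERK signalling through SRF. Its values were 74.4, 68.0 and 74.6 CPM in EV, 156, 142 and 158 CPM in WTHK2, and 133, 129 and 120 CPM in LAC (replicates 1 to 3). The 3 groups did not overlap, and their order was EV, LAC, WTHK2. Mean levels were 72.3 ± 3.76, 127 ± 6.43 and 152 ± 8.97 CPM in that order. The log2 difference, here and below the limma estimate on log2(CPM + 1), was 1.06 (SE 0.054) in WTHK2 against EV and 0.81 (SE 0.054) in LAC against EV. In both comparisons with EV this was the highest difference of all 6753 genes. Between WTHK2 and LAC it was 0.25 (SE 0.054), which placed Egr1 at rank 229 from the top.

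Ier3 codes for a small stress-inducible protein that takes part in survival signalling and interacts with ERK. Ier3 stood at 80.6, 82.3 and 86.7 CPM in EV, at 145, 122 and 146 CPM in WTHK2, and at 123, 118 and 119 CPM in LAC. EV lay below both other groups, but WTHK2 replicate 2 fell within the range of the LAC libraries, so the order of WTHK2 and LAC did not hold in every library. The log2 differences from EV were 0.71 (SE 0.058) in WTHK2 and 0.52 (SE 0.058) in LAC. Between WTHK2 and LAC the value was 0.19 (SE 0.058), and 0.28 without WTHK2 replicate 2. That library was the lowest of the 3 in its group for 5 of the 8 genes. Beside Ier3 these were Egr1 (142 CPM), Cebpd (38.9 CPM), Dusp1 (71.8 CPM) and Id3 (88.8 CPM).

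Of the pair of phosphatases, Dusp1 stood higher in LAC and Dusp4 lower in both groups than in EV. Dusp1 (MKP-1) is a nuclear phosphatase that acts mainly on p38 and JNK and is itself induced early by growth and stress signals. Its values were 71.4, 76.2 and 69.7 CPM in EV, 72.6, 71.8 and 74.7 CPM in WTHK2, and 106, 110 and 102 CPM in LAC. All WTHK2 libraries lay inside the EV range, while all LAC libraries lay above both groups. The log2 differences were 0.54 (SE 0.051) in LAC against EV, 0.013 (SE 0.051) in WTHK2 against EV and -0.53 (SE 0.051) in WTHK2 against LAC. The value in WTHK2 against EV turned sign without EV replicate 3 (-0.014) or WTHK2 replicate 3 (-0.0036) and was 0.049 without EV replicate 2. In WTHK2 against LAC Dusp1 was at rank 9 from the bottom of the table.

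Dusp4 (MKP-2), a nuclear phosphatase of ERK and JNK that ERK activity induces, was highest in EV. It stood at 61.9, 56.8 and 56.5 CPM in EV, at 41.6, 44.9 and 43.4 CPM in WTHK2, and at 49.3, 51.3 and 54.2 CPM in LAC. The groups did not overlap, and LAC lay between WTHK2 and EV. The log2 difference was -0.42 (SE 0.062) in WTHK2 against EV and -0.17 (SE 0.062) in LAC against EV. The lowest EV library and the highest LAC library, 56.5 and 54.2 CPM, were close. Dusp1 and Dusp4 therefore took different places in the order of the groups: LAC was highest for Dusp1 and EV highest for Dusp4.

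Fosl1 and Myc had nearly the same profile. Fosl1 (FRA-1) is an AP-1 subunit that accumulates while ERK activity lasts. Its values were 405, 389 and 401 CPM in EV, 405, 385 and 383 CPM in WTHK2, and 477, 460 and 463 CPM in LAC. EV and WTHK2 overlapped, and the LAC libraries lay above both. Myc, the E-box transcription factor of growth and ribosome production, stood at 479, 488 and 484 CPM in EV, at 481, 492 and 474 CPM in WTHK2, and at 570, 562 and 566 CPM in LAC. Here too LAC stood apart, and the EV values lay within the WTHK2 range.

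The log2 difference in LAC against EV was 0.23 for each of these genes (SE 0.035 for Fosl1 and 0.032 for Myc). In WTHK2 against EV it was -0.029 (SE 0.035) for Fosl1 and -0.0041 (SE 0.032) for Myc, and both signs turned after scaling all libraries to 1 common median, to 0.0067 and 0.031. Fosl1 also turned with quantile normalization, to 0.010, and Myc without EV replicate 2 (0.0023) or WTHK2 replicate 3 (0.0081). Of the 28 pairs among the 8 genes, Fosl1 and Myc were the closest, with a root-mean-square difference of 0.036 between their log2 profiles over the 9 libraries, each taken relative to its own EV mean. The next pair, Dusp1 and Myc, was at 0.19, and the farthest, Egr1 and Dusp4, at 1.03.

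Cebpd and Id3 stood apart in WTHK2, in opposite directions. Cebpd codes for C/EBP delta, a leucine zipper transcription factor induced early by cytokines and stress and by growth arrest. Cebpd stood at 24.7, 23.6 and 21.4 CPM in EV, at 41.8, 38.9 and 42.2 CPM in WTHK2, and at 28.6, 23.1 and 26.5 CPM in LAC. WTHK2 lay above both other groups, and EV and LAC overlapped. The log2 difference was 0.79 (SE 0.083) in WTHK2 against EV and 0.63 (SE 0.083) in WTHK2 against LAC. In LAC against EV it was 0.16 (SE 0.083), with values between 0.090 and 0.24 when single libraries were left out, 0.090 without LAC replicate 1, 0.24 without LAC replicate 2 and 0.10 without EV replicate 3.

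Id3, a helix-loop-helix protein that binds E proteins and keeps them from DNA, is known as a target of both BMP signalling and Egr1. Its values were 124, 115 and 118 CPM in EV, 97.4, 88.8 and 89.0 CPM in WTHK2, and 123, 133 and 137 CPM in LAC. WTHK2 lay below both other groups, and LAC replicate 1 fell within the EV range. The log2 difference was -0.37 (SE 0.052) in WTHK2 against EV, 0.14 (SE 0.052) in LAC against EV and -0.51 (SE 0.052) in WTHK2 against LAC. In the last comparison Id3 was at rank 13 from the bottom of the table. With replicate 1 of both WTHK2 and LAC left out, the libraries with the highest mitochondrially encoded transcripts, that difference was -0.60, the only one of the 8 genes' values that this step moved by more than the replicate SD.

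**Figure D2:**
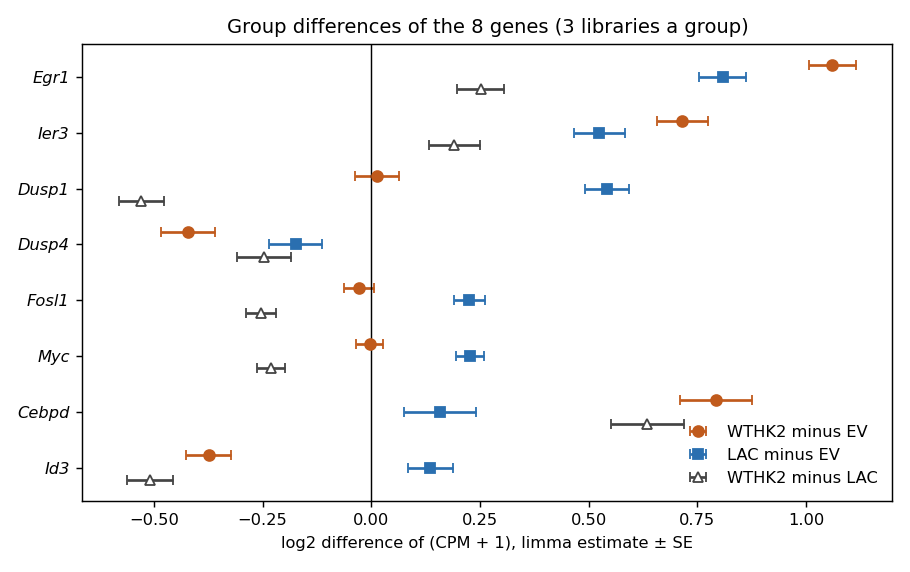
Log2 differences of CPM + 1 (horizontal axis, limma estimate with its SE) for the 8 genes, with WTHK2 minus EV as circles, LAC minus EV as squares and WTHK2 minus LAC as open triangles. The circles and squares of Egr1 and Ier3 lie to the right of 0, those of Dusp4 to the left, and those of Dusp1, Fosl1, Myc and Cebpd lie apart from each other.

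By the call used for all genes (a Benjamini-Hochberg adjusted p under 0.05 in limma), 46.4% of genes were called in WTHK2 against EV, 49.5% in LAC against EV and 16.1% in WTHK2 against LAC. Of the 8 genes, 3 were called higher and 2 lower in the first comparison, 6 and 1 in the second, and 3 and 5 in the third. Groups without overlap were counted too, which held for 57.1% of all genes in the first comparison (26.6% higher, 30.5% lower), 57.8% in the second (27.0% and 30.8%) and 29.0% in the third (14.5% each way). Of the 8 genes, 3 lay wholly above and 2 wholly below in the first, 5 and 1 in the second, and 2 and 5 in the third. Because the genes were chosen with these comparisons known, nothing is read from those counts. Both comparisons with EV use the same 3 EV libraries. CPM is not scaled to transcript length, so levels are not compared between genes.

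The depth behind these values was from 474 reads (Cebpd, LAC replicate 2) to 12902 reads (Myc, WTHK2 replicate 2). Counting alone would give coefficients of variation between 0.931% (Myc in LAC) and 4.34% (Cebpd in LAC). The coefficients among replicates ran from 0.669% for Myc in LAC to 10.6% for Cebpd in LAC. Myc in EV varied by 0.903%, about what counting gives (0.943%), whereas Ier3 in WTHK2 varied by 10.1% where counting gives 1.82%. The differences of Fosl1 and Myc in LAC are thus small ones on precise values, and the difference of Cebpd in LAC is a small one on an imprecise value.

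Other immediate early genes were tested as a list that leaves out the 8 genes. In LAC against EV, where 22.4% of all genes were called higher and 27.1% lower, 9 of the 22 listed genes rose and 4 fell, with a median log2 difference of 0.12 against -0.0035 over all genes. Without EV replicate 2 the counts were 6 and 1, without LAC replicate 1 they were 7 and 2, and with libraries rescaled to a common median they were 11 and 2. Calls over all genes moved as well, from 1512 higher and 1829 lower to 1150 and 1500, 1157 and 1557, and 2058 and 1452, in that order. The shares of all genes given here and below come from the fit of all 9 libraries as deposited. They do not apply to counts under alternatives. In WTHK2 against EV, where 21.0% of all genes were called higher and 25.4% lower, 6 rose and 2 fell, with a median of 0.060 against -0.0082. Without WTHK2 replicate 3 those counts were 7 and 4. In WTHK2 against LAC, where 8.37% of all genes were called higher and 7.76% lower, 1 was higher and 3 were lower, or 1 and 1 without LAC replicate 3. Leaving that library out took the calls over all genes from 565 and 524 to 370 and 331. With replicate 1 of both WTHK2 and LAC left out, the counts were 8 and 2 in LAC and 6 and 2 in WTHK2.

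Ccn1 and Ccn2, secreted matricellular proteins that serum and YAP induce, led the list in LAC. Ccn1 went from 149 ± 6.30 CPM in EV to 192 ± 8.10 in LAC (log2 difference 0.37, SE 0.048, adjusted p = 6.36e-06) and to 178 ± 10.5 in WTHK2 (0.25, SE 0.048, adjusted p = 2.51e-04). Ccn2 went from 246 ± 23.2 CPM to 337 ± 32.9 in LAC (0.45, SE 0.064, adjusted p = 1.38e-05) and to 306 ± 21.2 in WTHK2 (0.31, SE 0.064, adjusted p = 5.39e-04). Phlda1, a pleckstrin-like protein used as a readout of ERK output, rose from 77.5 ± 1.27 CPM to 94.9 ± 1.01 in LAC and to 92.4 ± 4.22 in WTHK2. These genes rose in both comparisons with EV, with smaller differences than Egr1. Zfp36l2, which binds AU-rich mRNAs and speeds their decay, fell in both, with log2 differences of -0.37 in WTHK2 (SE 0.069, adjusted p = 2.53e-04) and -0.25 in LAC (SE 0.069, adjusted p = 0.00483). Between WTHK2 and LAC, the kinase gene Plk2 was lower in WTHK2 (-0.24, SE 0.050, adjusted p = 0.00202) and Zfp36l1 higher (0.18, SE 0.045, adjusted p = 0.00835).

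**Figure D3:**
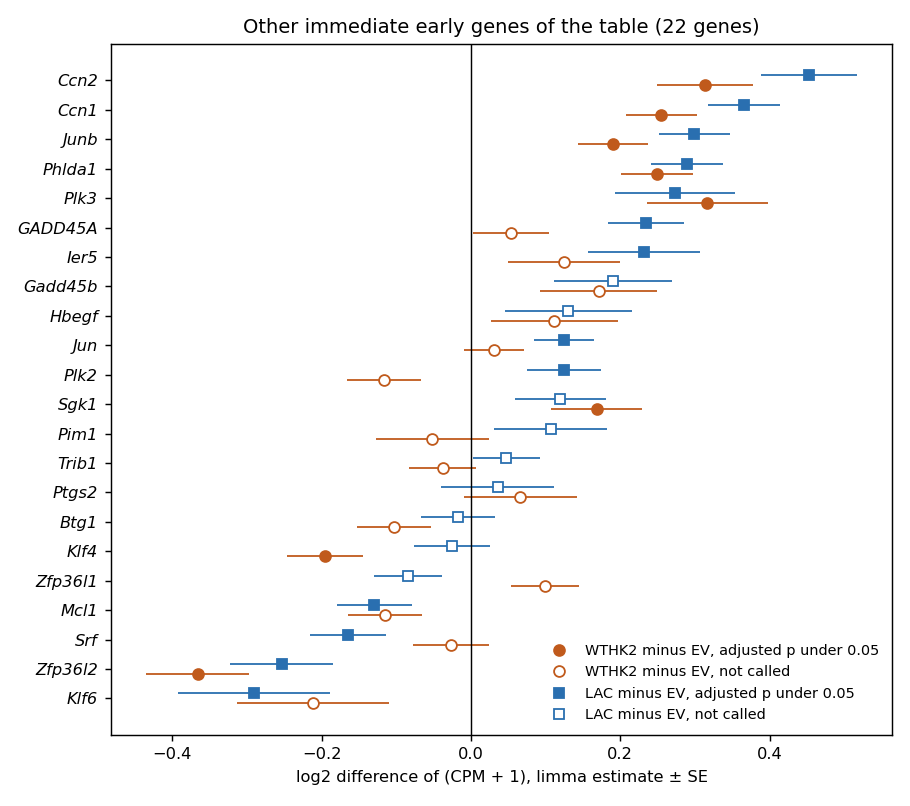
Log2 differences of CPM + 1 from EV (horizontal axis, limma estimate with its SE) for the 22 other immediate early genes of the table, ordered by their value in LAC; circles are WTHK2 and squares LAC, filled where the adjusted p was under 0.05. Ccn2, Ccn1, Junb and Phlda1 are filled on the right in both comparisons and Zfp36l2 is filled on the left in both.

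AP-1 is a dimer of FOS and JUN family proteins, and Fosl1 is one of its FOS members. Beside it, 6 of 14 listed AP-1 and MAF genes were in the table; Fos, Fosb and Atf3 were not among them and were not analysed here. In LAC 2 rose and 1 fell (22.4% and 27.1% of all genes), and in WTHK2 1 rose and 1 fell (21.0% and 25.4%). Jun and Junb are also in the list of other immediate early genes and were counted there already. Lists below share genes too, so their counts are not separate. Phlda1 and Hbegf are in the immediate early and ERK lists, and Srf is in the immediate early and SRF lists. Dusp5 is in the MAP kinase phosphatase and ERK lists, and Ccnd1 in the ERK and MYC target lists. Junb rose from 107 ± 1.37 CPM in EV to 132 ± 6.40 in LAC (log2 difference 0.30, SE 0.047, adjusted p = 4.13e-05) and to 122 ± 5.04 in WTHK2 (0.19, SE 0.047, adjusted p = 0.00269). Jun rose in LAC by 0.12 (SE 0.040, adjusted p = 0.0140). Fosl2, the closest relative of Fosl1, moved the other way, from 102 ± 4.66 CPM in EV to 80.6 ± 5.00 in LAC (-0.34, SE 0.053, adjusted p = 4.28e-05). In WTHK2 Fosl2 stood at 91.5 ± 1.94 CPM (-0.15, SE 0.053, adjusted p = 0.0232), a call that was lost with either other scaling and without EV replicate 2 or 3 or WTHK2 replicate 1 or 3. Jund was lower in WTHK2 than in LAC (-0.17, SE 0.047, adjusted p = 0.0196), but 0 genes of the list were called there without WTHK2 replicate 2 or without LAC replicate 3.

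Nab1 and Nab2 code for corepressors that bind EGR1, and Nab2 is itself a target of EGR1. Nab2 rose in LAC from 70.1 ± 0.999 to 83.5 ± 6.96 CPM (log2 difference 0.25, SE 0.058, adjusted p = 0.00161). In WTHK2, where the Egr1 level was highest, Nab2 stood at 69.7 ± 2.63 CPM (-0.0078, SE 0.058, adjusted p = 0.924). Its difference between WTHK2 and LAC passed the test as well (-0.25, adjusted p = 0.00439). Nab1 passed in neither comparison with EV, with means of 106 CPM for EV, 109 for WTHK2 and 104 for LAC.

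Of 8 further MAP kinase phosphatases, 3 were in the table. Dusp16, which acts on JNK and p38, fell from 95.1 ± 4.45 CPM in EV to 70.6 ± 3.08 in WTHK2 (log2 difference -0.43, SE 0.059, adjusted p = 1.00e-05) and to 74.6 ± 5.56 in LAC (-0.35, SE 0.059, adjusted p = 8.07e-05). Dusp5, a nuclear phosphatase of ERK, stood at 42.2 ± 2.71 CPM in EV and rose to 47.8 ± 1.99 in LAC (0.18, SE 0.063, adjusted p = 0.0264). Dusp10, which acts on JNK and p38, rose there from 54.0 ± 0.818 to 59.7 ± 0.815 CPM (0.14, SE 0.055, adjusted p = 0.0366). Without EV replicate 2 or 3, or without LAC replicate 1 or 2, 0 of the 3 were called higher in LAC. Dusp5 and Dusp10 did not pass in WTHK2 against EV, at 46.6 and 54.8 CPM, though 1 gene of the list was called higher there with either other scaling and without EV replicate 1. Among the 5 phosphatases of the family in the table, Dusp4 and Dusp16 were thus the ones with lower values than EV in both groups.

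The other dual-specificity phosphatases, which do not act mainly on MAP kinases, counted 8 in the table. In LAC 2 rose and 1 fell (22.4% and 27.1% of all genes), and in WTHK2 0 rose and 1 fell (21.0% and 25.4%). The fall in both was that of Ssh2, a cofilin phosphatase, with log2 differences of -0.35 in LAC (SE 0.073, adjusted p = 5.37e-04) and -0.21 in WTHK2 (SE 0.073, adjusted p = 0.0247). The WTHK2 call was lost with libraries rescaled to a common median, where 2 genes of the list were higher and 0 lower, and without EV replicate 1 or 2 or WTHK2 replicate 2. Dusp15 rose in LAC by 0.22 (SE 0.059, adjusted p = 0.00463). Only 1 gene of the list rose in LAC when any single EV library, or LAC replicate 2 or 3, was left out.

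Of 11 genes in the table that ERK induces or that dampen it, 3 rose and 3 fell in WTHK2 (21.0% and 25.4% of all genes) and 2 rose and 2 fell in LAC (22.4% and 27.1%), counts near the shares over all genes. Without WTHK2 replicate 3 the first counts were 2 and 1, and without EV replicate 2 or 3 the second were 1 and 1. Etv4, an ETS factor downstream of ERK, rose in WTHK2 from 399 ± 7.82 to 457 ± 14.6 CPM (log2 difference 0.19, SE 0.034, adjusted p = 1.45e-04). Ccnd1, cyclin D1, fell there from 397 ± 15.9 to 325 ± 12.9 CPM (-0.29, SE 0.043, adjusted p = 2.32e-05) and stood at 388 ± 21.3 CPM in LAC. Spred1, an inhibitor of Ras activation, fell in both, at -0.22 in WTHK2 (SE 0.066, adjusted p = 0.0101) and -0.28 in LAC (SE 0.066, adjusted p = 0.00176). Errfi1, a feedback inhibitor of the EGF receptor, fell in LAC (-0.19, SE 0.064, adjusted p = 0.0210).

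Upstream, most of the called Ras, Raf and MAP kinase genes were lower than in EV. Of 30 in the table, 4 rose and 15 fell in WTHK2 (21.0% and 25.4% of all genes). In LAC 3 rose and 13 fell (22.4% and 27.1% of all genes). With libraries rescaled to a common median the counts were 4 and 12 in WTHK2, and 5 and 9 in LAC. Over all genes this rescaling took the calls from 1417 higher and 1714 lower to 1834 and 1364 in WTHK2. In LAC it took them from 1512 and 1829 to 2058 and 1452. Fewer rose without single libraries, 2 in WTHK2 without EV replicate 2 or 3 or WTHK2 replicate 1, and 1 in LAC without EV replicate 2 or LAC replicate 3. Ptpn11, the SHP2 phosphatase that links receptors to Ras, fell from 384 ± 6.94 CPM in EV to 306 ± 12.6 in WTHK2 (log2 difference -0.33, SE 0.037, adjusted p = 9.67e-07) and to 325 ± 6.02 in LAC (-0.24, SE 0.037, adjusted p = 3.48e-05). The falls were on both sides of the pathway, since Nf1 and Rasa1, which switch Ras off, also fell. Nf1 was at -0.43 in WTHK2 (SE 0.074, adjusted p = 1.06e-04) and -0.48 in LAC (SE 0.074, adjusted p = 3.02e-05), and Rasa1 was at -0.38 in LAC (SE 0.059, adjusted p = 3.79e-05). Rps6ka2, an ERK-activated kinase, fell to 26.4 ± 2.81 CPM in WTHK2 from 40.4 ± 2.38 in EV (-0.60, SE 0.086, adjusted p = 1.42e-05). Mapk3, which codes for ERK1, was lower in WTHK2 than in LAC (-0.23, SE 0.038, adjusted p = 2.29e-04). Genes for very long proteins, of which Nf1 is 1, were lower in the same libraries (median -0.26 in WTHK2 and -0.28 in LAC), and their part in these falls was not tested.

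The SRF, ternary complex and CREB list holds factors that bind DNA in front of immediate early genes and their cofactors. Of its 10 genes in the table, 1 rose and 4 fell in WTHK2 (21.0% and 25.4% of all genes), and 1 rose and 5 fell in LAC (22.4% and 27.1%). Most of the genes that fell were cofactors: Mrtfa, Mrtfb and Ep300 in both comparisons and Crtc3 in LAC. Of the DNA-binding factors Srf, Elk1, Elk3 and Atf1, 1 fell in each comparison, Elk3 in WTHK2 and Srf in LAC (Crtc3, Mrtfa, Elk1 and Atf1 are named after their values were seen). The LAC counts were 1 and 2 with libraries rescaled to a common median, 1 and 3 with quantile normalization and 1 and 2 without EV replicate 2, and 1 and 3 without EV replicate 3 or LAC replicate 3. Without WTHK2 replicate 1, 0 rose in WTHK2. Srf went in LAC from 81.3 ± 2.16 to 72.4 ± 1.97 CPM (log2 difference -0.16, SE 0.051, adjusted p = 0.0110). Mrtfb, an actin-regulated cofactor of SRF, fell in both comparisons, at -0.33 in WTHK2 (SE 0.080, adjusted p = 0.00206) and -0.34 in LAC (SE 0.080, adjusted p = 0.00157). Crtc2, a CREB coactivator, rose in both, by 0.18 in WTHK2 (SE 0.052, adjusted p = 0.00896) and by 0.28 in LAC (SE 0.052, adjusted p = 1.97e-04).

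Of 25 genes in the table known to respond to MYC, 7 rose and 4 fell in LAC (22.4% and 27.1% of all genes), and 6 rose and 8 fell in WTHK2 (21.0% and 25.4% of all genes). Most of these counts were near the shares over all genes. With libraries rescaled to a common median the counts were 11 and 4, and 6 and 5, and without EV replicate 1 the WTHK2 counts were 5 and 5 and without EV replicate 2 they were 3 and 6. Nop56, a core protein of ribosomal RNA modification, rose in LAC from 416 ± 7.53 to 513 ± 22.9 CPM (log2 difference 0.30, SE 0.046, adjusted p = 3.39e-05), and Nme2, a nucleoside diphosphate kinase, from 444 ± 1.54 to 516 ± 13.0 CPM (0.22, SE 0.033, adjusted p = 2.72e-05). Tfrc, the transferrin receptor, fell there from 276 ± 9.05 to 225 ± 18.2 CPM (-0.30, SE 0.046, adjusted p = 4.00e-05). Ccnd2, cyclin D2, which MYC can induce, fell in both groups, from 51.0 ± 3.37 CPM to 25.3 ± 2.37 in WTHK2 and 30.8 ± 4.08 in LAC. In WTHK2 against LAC, the comparison in which Myc was lower, 1 gene of the list was higher and 7 were lower (8.37% and 7.76% of all genes). That count was 1 and 3 without WTHK2 replicate 3 or LAC replicate 3, and 1 and 4 without WTHK2 replicate 2, without LAC replicate 1 or with only the 6 libraries of the comparison. Calls over all genes were fewer too, at 333 higher and 329 lower without WTHK2 replicate 3 and 370 and 331 without LAC replicate 3. Nolc1, a nucleolar chaperone, was among the lower genes (-0.23, SE 0.033, adjusted p = 4.30e-05), and Tfrc was the higher one (0.33, SE 0.046, adjusted p = 4.20e-05).

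The MYC network list holds partners and competitors of MYC and also cofactors and regulators, 14 in the table. It counted 1 higher and 5 lower in WTHK2 (21.0% and 25.4% of all genes). In LAC 2 were higher and 5 lower (22.4% and 27.1%). Mlx, the dimer partner of the glucose-responsive MondoA and ChREBP, rose in WTHK2 from the 38.8 ± 0.611 CPM of EV (log2 difference 0.36, SE 0.069, adjusted p = 3.69e-04) and stood at 39.5 ± 2.40 CPM in LAC. Mnt, a repressor that competes for MAX, fell in LAC (-0.29, SE 0.082, adjusted p = 0.00645). Without EV replicate 2 the LAC counts were 2 and 2, and with either other scaling they were 2 and 3. Mycbp2 and Trrap, both genes for very long proteins, fell in both comparisons, and the part of that trend was not tested.

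Cebpb, the relative of Cebpd, had another order of groups. Its mean was 59.3 ± 3.33 CPM in EV, against 69.1 ± 7.36 in WTHK2 and 75.2 ± 0.479 in LAC. Its rise passed in LAC (log2 difference 0.34, SE 0.067, adjusted p = 3.64e-04) and in WTHK2 (0.21, SE 0.067, adjusted p = 0.0132), where its values overlapped those of EV. Of the 3 C/EBP family genes listed, 1 was higher and 1 lower in WTHK2 (21.0% and 25.4% of all genes). These counts were 0 and 0 without EV replicate 1 or WTHK2 replicate 3 and 0 and 1 without WTHK2 replicate 1. Ddit3 (CHOP), a stress-induced C/EBP relative, rose in LAC from 30.5 ± 1.44 to 38.0 ± 3.11 CPM (0.30, SE 0.076, adjusted p = 0.00261) and was lower in WTHK2 than in LAC (-0.47, SE 0.076, adjusted p = 1.78e-04). Cebpz fell in WTHK2 (-0.10, SE 0.040, adjusted p = 0.0402), a call that was lost with either other scaling, and without EV replicate 2 the list had 0 lower genes.

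Id2 rose in LAC from 30.3 ± 1.32 to 36.8 ± 2.68 CPM (log2 difference 0.27, SE 0.072, adjusted p = 0.00390). In WTHK2, where Id3 was lowest, Id2 stood at 30.4 ± 0.185 CPM (0.0061, adjusted p = 0.953). Of the partners of ID proteins, Tcf3 rose in LAC by 0.098 (SE 0.035, adjusted p = 0.0243), and Tcf12 fell in both, at -0.32 in WTHK2 (SE 0.064, adjusted p = 4.29e-04) and -0.35 in LAC (SE 0.064, adjusted p = 1.79e-04). Hes1, a helix-loop-helix repressor, rose in LAC by 0.31 (SE 0.086, adjusted p = 0.00531). BMP and SMAD genes, the route best known to raise Id3, counted 6 in the table. In WTHK2 0 were higher and 4 lower (21.0% and 25.4% of all genes). In LAC 0 were higher and 5 lower (22.4% and 27.1%). The lower ones in both comparisons included Smurf1 and Smurf2, genes for ubiquitin ligases that restrain this route. Smurf2 was at -0.39 in WTHK2 (SE 0.043, adjusted p = 7.06e-07) and -0.21 in LAC (SE 0.043, adjusted p = 3.93e-04). Without EV replicate 1 or 2 the lower count in WTHK2 was 2. Smad5, a BMP-activated SMAD, fell from 54.0 ± 5.88 CPM in EV to 42.2 ± 2.66 in WTHK2 and to 38.7 ± 2.74 in LAC.

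**Figure D4:**
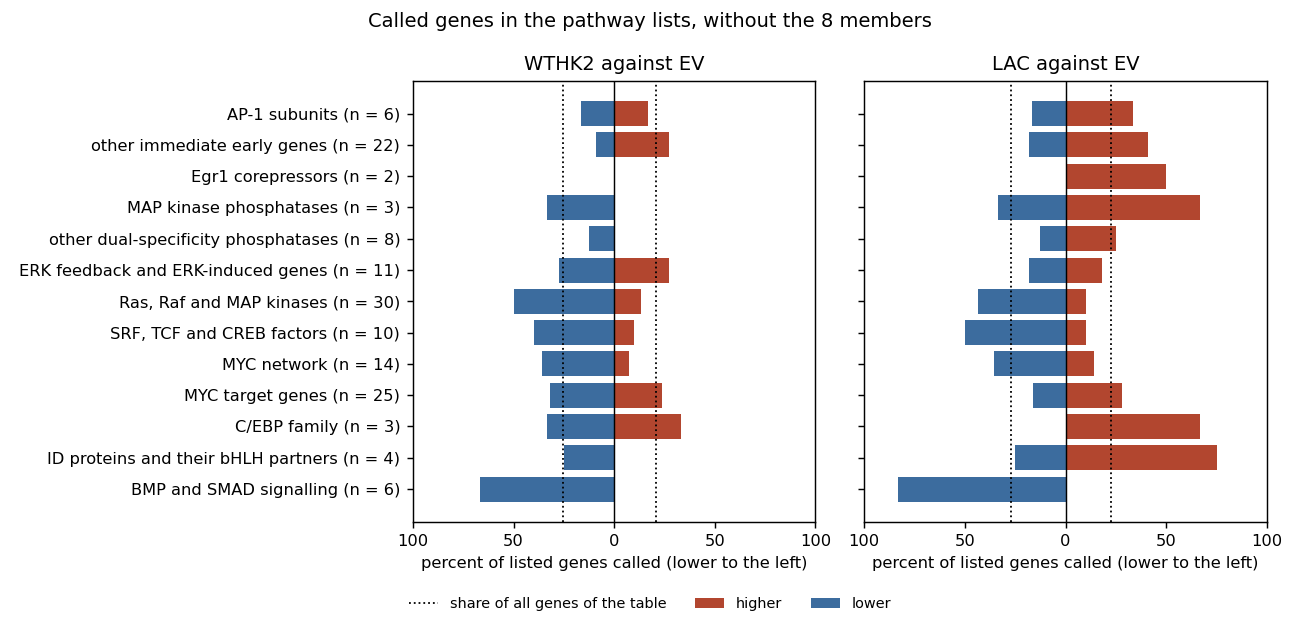
Share of the genes of each pathway list that were called higher (red, to the right) or lower (blue, to the left) in WTHK2 and in LAC against EV, without the 8 genes; the number of genes is in each label, and dotted lines mark the shares among all 6753 genes. In lists with under 5 genes 1 gene moves a bar far, as Dusp16 does among 3 MAP kinase phosphatases.

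Across the whole table, the genes whose profiles were most like those of the 8 came from many functions. The measure was the root-mean-square difference of log2 profiles relative to EV over the 9 libraries, which share their depth and scaling within a library. Among the other 7 genes of the set, Ier3 was the nearest to Egr1, at 0.26. Nearest to Dusp1 were Ppp1r15a (GADD34), a stress-induced phosphatase subunit, at 0.11, and the chemokine gene Ccl2 at 0.13. The means of Ppp1r15a were 45.5 CPM for EV, 45.3 for WTHK2 and 61.5 for LAC. For Ier3 the nearest were Ccnl2 at 0.11 and Rex1bd at 0.12, and for Dusp4 Zfp317 at 0.047 and Zfp367 at 0.049.

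Fosl1 was nearest to Nsrp1, a splicing factor, at 0.021, and then to Myc at 0.036. Myc was nearest to Rab5if at 0.026 and Snrnp27, a spliceosome protein, at 0.032. Cebpd was nearest to Ints11, the nuclease of the Integrator complex, at 0.098, and Tns2 at 0.12. Nearest to Id3 were Nfkb2, an NF-kB subunit, at 0.086, and Zmynd19 at 0.089.

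The position of the genes was read from the RefSeq assembly CriGri-PICRH-1.0 for gene order only, which matched 6143 genes of the table (91.0%) by symbol, all 8 among them. For Fosl1, all 10 nearest genes of the table (5 on each side) were above 0 in LAC against EV, with a median log2 difference of 0.15 where Fosl1 had 0.23. In WTHK2 against EV 8 of these 10 were above 0, with a median of 0.14 where Fosl1 had -0.029. For Ier3 in WTHK2 against EV, 7 of 10 neighbours were above 0 with a median of 0.19 where Ier3 had 0.71, and the highest, Cdsn at 0.94 (named after its value was seen), was above Ier3. The 10 neighbours of Egr1 had medians of 0.0043 in WTHK2 and -0.088 in LAC, with the highest at 0.47 and 0.31, below Egr1 in both. For Cebpd in WTHK2 the median was -0.10 and the highest neighbour 0.43. For Dusp1 in LAC they were -0.10 and 0.30, and for Myc in LAC -0.071 and 0.24, just above the 0.23 of Myc. For Dusp4 in WTHK2 the median was -0.068 and the lowest neighbour Csf1 at -0.75 (named after its value was seen), below the -0.42 of Dusp4. For Id3 in WTHK2 the median was 0.029 and the lowest neighbour -0.28, where Id3 had -0.37.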

How the data were processed

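RNA of MI5-4 cells was made into mRNA libraries (Nugen kit, per the labels' protocols). Per the submitters' processing notes, the tools were STAR 2.7.0a, featureCounts 2.0.1, edgeR 3.8, cutadapt 1.18 and FastQC 0.11.8; the sources used here do not give build, annotation or strand setting. The authors deposited normalized CPM for 6753 genes in 9 libraries, which hold 80.3% to 81.4% of each library. Groups came from the sample titles. The 8 members and the gene lists were chosen with earlier results of these data known. Values were taken as log2(CPM + 1), with a filter at a mean of 1 CPM that took out 0 genes. A single limma 3.58.1 fit in R 4.3.3 held the 9 libraries (variance trend, no covariates), with Benjamini-Hochberg adjustment over all genes, two-sided, at 0.05. Summaries and figures used pandas 2.3.3, numpy 2.4.6 and matplotlib 3.10.9 under Python 3.11.15. The fit was tested on simulated data with 200 changed genes. It recovered 58.2% to 68.7% of 1.2-fold changes, 97.0% to 100% of 1.5-fold and 100% of 2-fold ones. False calls made up 5.41% (WTHK2 against EV), 6.84% (LAC against EV) and 2.30% (WTHK2 against LAC) of calls.

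Named from each list were up to 4 called genes with the smallest adjusted p in each comparison with EV and up to 2 in WTHK2 against LAC, or 2 where none was called; all genes of lists with 5 or fewer could be named, and the 2 nearest profiles to each member, of which 1 is not reported here. Alternatives were pseudocounts of 0.25 and 4, no filter or one at 50 CPM, 2 other scalings, fits of 6 libraries, the replicate number as a block, libraries left out, and voom on the reads that the CPM steps give, chosen after seeing the data in place of a planned count test that was not run.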

Additional observations from a re-analysis of the deposited data

How the results depend on the processing

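The numbers of genes called, 3131 in WTHK2 against EV, 3341 in LAC against EV and 1089 in WTHK2 against LAC, stayed within 1.5 times under all alternatives run except 2 that left out a library: 662 without WTHK2 replicate 3 and 701 without LAC replicate 3 in the last comparison. Leaving out single libraries gave 2445 to 2834, 2650 to 3485 and 662 to 1279. With the replicate number as a block they were 3433, 3609 and 1414. Libraries with the same number correlated in their deviations from the group mean between -0.0057 and 0.44. As not all were over 0.1, the numbers were not taken as pairs. Between WTHK2 and LAC the same-number values were 0.44, 0.25 and 0.073 (replicates 1 to 3), against -0.33 to 0.19 for different numbers. Some spread shared by number may thus remain there. Higher genes made up 45.3% of calls in both comparisons with EV, but 57.3% (WTHK2) and 58.6% (LAC) with libraries rescaled to the same median. Of 381 values of the 8 genes under alternatives, 371 moved by less than the replicate SD, 10 by more, and 0 called ones changed sign. The depth limits Cebpd most (474 to 1020 reads a library).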
